A study of Homo sapiens with 4 samples.

Results

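Small nucleolar RNA host genes are genes whose introns carry small nucleolar RNAs (snoRNAs), and the ones described here are those that make a long non-coding RNA and no protein. They were taken as every row whose identifier maps to a symbol made of SNHG and a number, or to GAS5, ZFAS1, EPB41L4A-AS1, DANCR, MEG8 or DLEU2, with rows annotated as protein-coding left out. This gave 33 genes of the 64252 rows in the table. Of 36 candidate identifiers, 2 are annotated as protein-coding (SNHG32, listed as C6orf48, and a second row of SNHG28), and SNHG4 was not analysed here. The genes were measured by RNA sequencing of total RNA from SK-N-BE(2), a human neuroblastoma cell line. One group, shControl, carried a control short hairpin RNA, and the other, shCDK5RAP3, a hairpin against CDK5RAP3, a protein that binds the ligase of the ubiquitin-like modifier UFM1 at the endoplasmic reticulum. Each group has 2 libraries. The sources used here do not state the number of hairpins, the time after the hairpin was introduced or whether the cells were a pool or clones.

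In these genes the introns are the conserved product. When the transcript is spliced, the intron is opened and trimmed to a snoRNA, which binds a set of core proteins. In many cases the snoRNA then guides the chemical modification of ribosomal or spliceosomal RNA. Box C/D snoRNAs guide methylation of the ribose with the enzyme fibrillarin, box H/ACA snoRNAs guide the conversion of uridine to pseudouridine with dyskerin, and small Cajal body RNAs do the same for spliceosomal RNAs. The joined exons leave the nucleus in many cases, are read by ribosomes over short stretches and are removed by nonsense-mediated decay, so the level of the exons and the level of the snoRNA need not match. Many host genes begin with a run of pyrimidines at the first base of the RNA, as do the mRNAs of ribosomal proteins.

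Total counts were 28653689 to 30138393 per library. CDK5RAP3 itself had 87.3 and 98.5 CPM (counts scaled to the library's size) with the control hairpin and 58.4 and 57.0 CPM with its own, which is 62.1% of control (edgeR adjusted p = 0.000163). Of 10 marker genes of noradrenergic neuroblastoma 9 were lower in the shCDK5RAP3 libraries at an edgeR adjusted p under 0.05, beside 21.8% of all genes. All 10 had a log2 change below 0 (the highest -0.11), and none was at 0 counts. Their summed level was 8741 and 9277 against 5292 and 5457 CPM. The summed levels of 4 fibroblast markers were 246 and 248 against 125 and 120 CPM, and those of the leukocyte, endothelial, epithelial and Schwann cell lists did not exceed 4.35 CPM in any library. In bulk RNA, fewer cells of a type and less RNA per cell cannot be told apart, and the part of these shifts in the host gene results was not tested. Nothing in the labels says that the libraries came from separate cultures, so p-values measure the spread between these libraries, which may be technical.

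Of the 33 host genes 29 had enough counts to be tested. In the shCDK5RAP3 libraries 9 were higher, 5 were lower and 15 did not pass an edgeR adjusted p of 0.05. The share called was 48.3%, beside 41.5% of all 18775 genes tested. The share called higher was 31.0%, beside 19.7% of all genes, and the share called lower was 17.2%, beside 21.8%. Both libraries of 1 group lay above both of the other for 21 of the 29 host genes (72.4%), beside 71.4% of all genes. The median log2 fold change of the host genes was 0.03 and that of all genes was -0.00, and the median absolute change was 0.29 against 0.37. Host genes were thus called in both directions, with medians near those of all genes. The summed level of all host genes was 1814 and 1935 CPM with the control hairpin against 1931 and 1967 CPM with the CDK5RAP3 hairpin. The 9 genes called higher went from 531 and 577 to 709 and 723 CPM in sum, and the 5 called lower from 465 and 492 to 374 and 389 CPM.

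**Figure D1:**
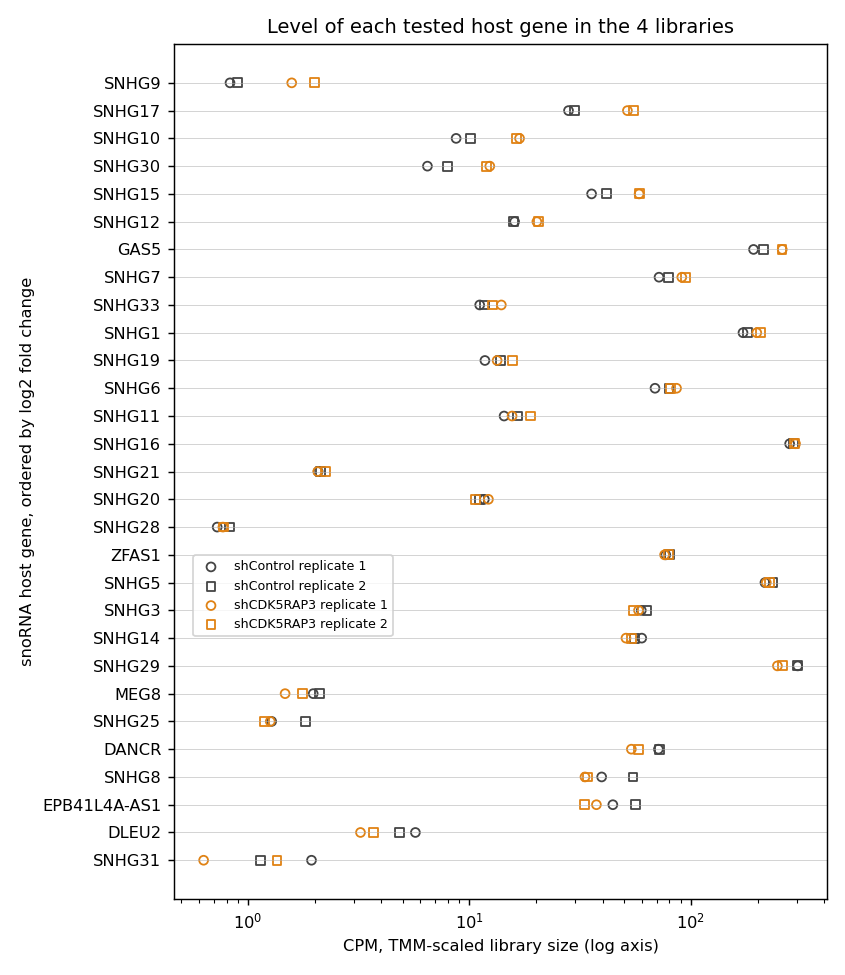
Level of each of the 29 tested host genes in the 4 libraries, in CPM on a log axis; grey circles and squares are shControl replicates 1 and 2, orange ones shCDK5RAP3 replicates 1 and 2, and genes are ordered by fold change from the lowest at the bottom. SNHG17 near the top has both shCDK5RAP3 libraries (51.7 and 55.0 CPM) above both shControl libraries (28.0 and 29.8 CPM), while SNHG5 and ZFAS1 in the middle overlap.

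Levels spanned a wide range. Divided by the summed length of annotated exons, the control level was highest for SNHG29 and SNHG5 (80.8 and 80.4 CPM per kb), a gap smaller than the spread of SNHG5 between its control libraries (216 and 235 CPM). SNHG6 followed with 59.5, GAS5 with 55.7, SNHG16 with 53.2 and SNHG8 with 51.1 CPM per kb, and the spread of SNHG8 between the control libraries (39.5 and 54.8 CPM) covers the steps between these neighbours. At the other end were SNHG31 with 0.728, SNHG28 with 0.346 and MEG8 with 0.183 CPM per kb. The union of annotated exons is long for genes with many isoforms, such as SNHG14. These values can therefore understate the level of a gene expressed mainly as a short isoform.

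Of the 11 tested genes that hold only H/ACA snoRNAs, 4 were higher (36.4%), 3 were lower (27.3%) and 4 did not pass. The counts for this and the other snoRNA classes stand beside 19.7% of all genes called higher and 21.8% called lower. Each class holds few genes, and differences between the classes were not tested. SNHG17 (ENSG00000196756, chr20:38420588-38435353, minus strand) carries 4 placed copies of the SNORA71 family. It had 28.0 and 29.8 CPM with the control hairpin against 51.7 and 55.0 CPM with the CDK5RAP3 hairpin. Both shCDK5RAP3 libraries were far above both controls, a 1.85-fold difference (log2 change 0.88 ± 0.08 SE, edgeR adjusted p = 6.635e-05). SNHG15 (ENSG00000232956, chr7:44983023-44986961, minus strand), the host of SNORA9, had 35.6 and 41.5 against 58.4 and 58.3 CPM. It was 1.51-fold higher (log2 change 0.60 ± 0.09 SE, edgeR adjusted p = 0.00082), with no overlap between the groups. SNHG7 (ENSG00000233016, chr9:136721366-136728184, minus strand), the host of SNORA17A and SNORA17B, had 71.8 and 79.2 against 91.0 and 94.3 CPM, a smaller rise (log2 change 0.29 ± 0.07 SE, edgeR adjusted p = 0.009999). SNHG9 (ENSG00000255198, chr16:1964959-1965509, plus strand), the host of SNORA78, was called on low counts: 24 and 26 with the control hairpin against 45 and 59 with the CDK5RAP3 hairpin. Its fold was 2.07 with a wide error (log2 change 1.05 ± 0.33 SE, edgeR adjusted p = 0.0296).

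The 3 H/ACA hosts that were lower are EPB41L4A-AS1, SNHG8 and DANCR, each with a single snoRNA. EPB41L4A-AS1 (ENSG00000224032, chr5:112160526-112164276, plus strand) had 44.4 and 56.0 CPM with the control hairpin against 37.4 and 32.96 CPM with the CDK5RAP3 hairpin. It was at 70.1% of control (log2 change -0.51 ± 0.12 SE, edgeR adjusted p = 0.0079). Its control libraries lay further apart than the groups did at their nearest, and its log2 change ranged from -0.67 to -0.34 over the alternative fits. SNHG8 (ENSG00000269893, chr4:118278709-118279823, plus strand) had 39.5 and 54.8 against 33.2 and 34.2 CPM (log2 change -0.48 ± 0.14 SE, edgeR adjusted p = 0.0203). The control libraries of SNHG8 lay further apart than the groups did at their nearest, and without shControl replicate 2 the change was -0.23 (edgeR adjusted p = 0.113). DANCR (ENSG00000226950, chr4:52712404-52720351, plus strand) had 71.3 and 72.2 against 53.8 and 58.2 CPM. Its libraries agreed closely within each group, and it was at 78.1% of control (log2 change -0.36 ± 0.07 SE, edgeR adjusted p = 0.0038). SNHG3, SNHG11 and SNHG33 did not pass (log2 changes -0.12, 0.16 and 0.22), and neither did SNHG31 (-0.63 ± 0.44 SE), whose libraries overlap at 18 to 56 counts.

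For 6 of the 7 H/ACA hosts called, 1 or 2 snoRNAs are given here as examples of the RNA products, with their host, place (GRCh38, on the host's strand) and sequence from GENCODE 29. Capitals mark the ACA that sits 3 bases from the 3′ end and gives the class its name. SNORA71C and SNORA71D of SNHG17 are identical at 116 of 134 positions, so reads from such copies may be assigned to either. Their annotated sequences stop at the ACA and hold no capitals.
SNORA71C (SNHG17, higher, chr20:38429670-38429803): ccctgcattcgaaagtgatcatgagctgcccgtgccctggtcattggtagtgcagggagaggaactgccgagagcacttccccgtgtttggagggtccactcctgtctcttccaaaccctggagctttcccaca
SNORA71D (SNHG17, higher, chr20:38433865-38433998): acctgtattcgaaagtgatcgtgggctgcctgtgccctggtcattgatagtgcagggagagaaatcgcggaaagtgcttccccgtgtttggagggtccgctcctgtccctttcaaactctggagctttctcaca
SNORA9 (SNHG15, higher, chr7:44985378-44985510): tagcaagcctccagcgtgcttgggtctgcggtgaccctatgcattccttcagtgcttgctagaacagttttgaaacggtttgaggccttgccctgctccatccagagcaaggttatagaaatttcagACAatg
SNORA78 (SNHG9, higher, chr16:1965184-1965310): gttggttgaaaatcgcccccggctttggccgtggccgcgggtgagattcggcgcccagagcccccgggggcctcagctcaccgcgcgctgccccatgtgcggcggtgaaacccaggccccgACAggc
SNORA13 (EPB41L4A-AS1, lower, chr5:112161485-112161617): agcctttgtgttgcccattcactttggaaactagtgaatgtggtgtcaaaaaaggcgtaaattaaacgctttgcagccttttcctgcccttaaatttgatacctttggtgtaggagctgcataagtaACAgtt
SNORA24 (SNHG8, lower, chr4:118279190-118279320): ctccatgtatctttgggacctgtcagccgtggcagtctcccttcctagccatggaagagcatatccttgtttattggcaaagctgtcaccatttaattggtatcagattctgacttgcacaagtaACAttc
SNORA26 (DANCR, lower, chr4:52713249-52713370): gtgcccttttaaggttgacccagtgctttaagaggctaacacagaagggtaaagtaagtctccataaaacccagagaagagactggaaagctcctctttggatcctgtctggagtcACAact

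Of the 10 tested genes that hold only box C/D snoRNAs, 2 were higher, 1 was lower and 7 did not pass. SNHG30 (ENSG00000267321, chr17:35568109-35574843, plus strand), the host of SNORD7, had 6.46 and 7.97 CPM with the control hairpin against 12.4 and 11.99 CPM with the CDK5RAP3 hairpin. It was 1.69-fold higher (log2 change 0.75 ± 0.16 SE, edgeR adjusted p = 0.0051). SNHG1 (ENSG00000255717, chr11:62851988-62855914, minus strand) carries 8 placed C/D snoRNAs, SNORD30 among them. It had 172 and 180 against 198 and 207 CPM, a rise of 15.2% over control that passed the test (log2 change 0.20 ± 0.06 SE, edgeR adjusted p = 0.0274). SNHG29 (ENSG00000175061, chr17:16438822-16478678, plus strand), also known as LRRC75A-AS1 and the host of SNORD49A, SNORD49B and SNORD65, was lower. It had 304 CPM in both control libraries against 246 and 260 CPM with the CDK5RAP3 hairpin, or 83.3% of control (log2 change -0.26 ± 0.06 SE, edgeR adjusted p = 0.0073).

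The C/D hosts that did not pass include several of the most abundant. SNHG5, the host of the SNORD50 pair, had 216 and 235 against 219 and 226 CPM. ZFAS1, the host of the SNORD12 family, had 77.0 and 79.8 against 76.1 and 79.6 CPM. Their log2 changes were -0.02 ± 0.07 SE and -0.01 ± 0.07 SE, among the smallest of the list, and the groups overlapped for both. The log2 change of SNHG16 was 0.05 ± 0.06 SE and that of SNHG19 was 0.18 ± 0.14 SE. SNHG6 had 68.9 and 79.6 against 86.1 and 80.6 CPM (0.17 ± 0.08 SE, edgeR adjusted p = 0.141), and passed only without shControl replicate 2 (0.27, edgeR adjusted p = 0.0172) and with replicate number as a block (edgeR adjusted p = 0.0437). The imprinted host genes SNHG14, which runs antisense to UBE3A and holds 83 placed C/D snoRNAs, and MEG8, which holds 41, did not pass (log2 changes -0.14 and -0.33).

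The C/D snoRNAs below, 1 from each of the hosts called, show the motifs that define the class. Capitals mark box C (ATGATGA or GTGATGA) near the 5′ end, where those letters occur, and box D (CTGA) near the 3′ end.
SNORD7 (SNHG30, higher, chr17:35573657-35573753): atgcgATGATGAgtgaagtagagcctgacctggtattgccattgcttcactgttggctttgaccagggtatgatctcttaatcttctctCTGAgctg
SNORD30 (SNHG1, higher, chr11:62853663-62853732): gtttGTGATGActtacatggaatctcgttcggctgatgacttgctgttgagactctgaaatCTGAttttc
SNORD49A (SNHG29, lower, chr17:16440036-16440106): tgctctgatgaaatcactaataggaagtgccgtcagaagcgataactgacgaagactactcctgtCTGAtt

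GAS5, SNHG12 and SNHG25 hold snoRNAs of both classes. GAS5 (ENSG00000234741, chr1:173863900-173868882, minus strand), named for its accumulation in growth-arrested cells and a textbook substrate of nonsense-mediated decay, carries 10 C/D snoRNAs and 1 H/ACA snoRNA. It had 192 and 212 CPM with the control hairpin against 259 and 258 CPM with the CDK5RAP3 hairpin. The groups did not overlap, and GAS5 was 1.28-fold higher (log2 change 0.35 ± 0.07 SE, edgeR adjusted p = 0.0030). SNHG12 (ENSG00000197989, chr1:28578538-28583132, minus strand), the host of SNORA16A, SNORA44, SNORA61 and SNORD99, had 15.99 and 15.8 against 20.2 and 20.5 CPM. It was higher by the same log2 change of 0.35, with a larger error (0.11 SE, edgeR adjusted p = 0.0263). SNHG25 had 37 and 53 against 36 and 35 counts and did not pass (log2 change -0.34 ± 0.33 SE).

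Of 3 tested hosts of small Cajal body RNAs, SNHG10 was higher and SNHG20 and SNHG21 did not pass. SNHG10 (ENSG00000247092, chr14:95532297-95534872, minus strand), the host of SCARNA13, had 8.70 and 10.1 CPM with the control hairpin against 16.8 and 16.3 CPM with the CDK5RAP3 hairpin. It was 1.76-fold higher (log2 change 0.81 ± 0.14 SE, edgeR adjusted p = 0.0014). SNHG20 and SNHG21, the hosts of SCARNA16 and SCARNA15, had log2 changes of 0.00 and 0.03. SCARNA13 is shown with its final ACA in capitals.
SCARNA13 (SNHG10, higher, chr14:95533355-95533629): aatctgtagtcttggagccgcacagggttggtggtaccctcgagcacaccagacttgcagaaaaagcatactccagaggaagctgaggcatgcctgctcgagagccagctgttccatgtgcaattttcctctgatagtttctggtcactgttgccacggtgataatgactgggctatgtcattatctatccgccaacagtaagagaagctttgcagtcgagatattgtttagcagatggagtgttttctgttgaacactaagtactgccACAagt

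DLEU2 and SNHG28 were tested and hold no placed snoRNA. DLEU2 (ENSG00000231607, chr13:49982552-50125720, minus strand) instead carries the microRNAs miR-15a and miR-16-1 in an intron, a locus known from deletions in chronic lymphocytic leukaemia. It had 5.70 and 4.85 CPM with the control hairpin against 3.22 and 3.68 CPM with the CDK5RAP3 hairpin. It was at 65.5% of control (log2 change -0.61 ± 0.21 SE, edgeR adjusted p = 0.0398), the highest adjusted p of the 14 host genes called. The mature sequences from RefSeq (GRCh38.p14) share their seed, bases 2 to 8, shown in capitals. The row of the miR-16-1 hairpin had at most 1 count in a library, so nothing was measured of the microRNAs.
hsa-miR-15a-5p (chr13:50049167-50049188): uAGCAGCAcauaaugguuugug
hsa-miR-16-5p (chr13:50049027-50049048): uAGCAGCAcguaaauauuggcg

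**Figure D2:**
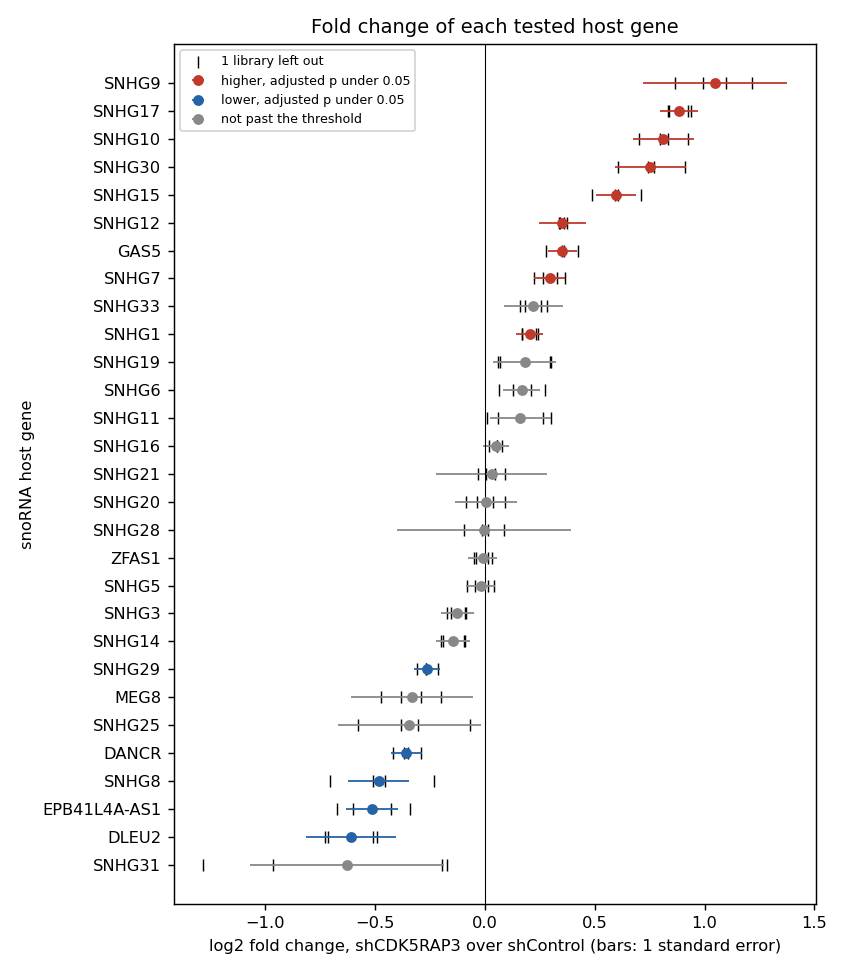
Log2 fold change (shCDK5RAP3 over shControl) of the 29 tested host genes with 1 standard error; red is higher and blue lower at an adjusted p under 0.05, grey did not pass, and black ticks are the values with 1 library left out. SNHG17, SNHG10 and SNHG15 keep all 4 ticks between 0.49 and 0.94, whereas the ticks of SNHG8 reach -0.23.

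The 14 called host genes kept their sign in all 13 alternative fits. Only SNHG17, SNHG10 and SNHG15 passed in every one of them, and their highest adjusted p over these fits was 0.0156, 0.0373 and 0.0408. Leaving out shCDK5RAP3 replicate 2, which leaves 1 library assumed to vary like the controls, ended 10 calls: GAS5 (edgeR adjusted p = 0.0732), SNHG1 (0.226), SNHG7 (0.138), SNHG9 (0.161), SNHG12 (0.141), SNHG30 (0.0643), DLEU2 (0.107), EPB41L4A-AS1 (0.145), SNHG8 (0.17) and SNHG29 (0.0625). Leaving out shCDK5RAP3 replicate 1 ended 9 calls: DANCR (edgeR adjusted p = 0.0769), SNHG29 (0.126), SNHG1 (0.103), SNHG7 (0.0683), SNHG9 (0.0572), SNHG12 (0.105), SNHG30 (0.0507), DLEU2 (0.184) and SNHG8 (0.16). Without shControl replicate 1 the calls of DLEU2 (0.158), SNHG1 (0.0891), SNHG12 (0.059) and SNHG9 (0.0902) were lost, and without shControl replicate 2 those of SNHG12 (0.0663), SNHG8 and SNHG9 (0.0649). With no filter on low counts 9 calls were lost, at edgeR adjusted p-values from 0.0501 for GAS5 to 0.193 for SNHG8, and SNHG17, SNHG10, SNHG15, DANCR and SNHG29 still passed. With DESeq2, DLEU2 (adjusted p = 0.144), SNHG12 (0.0933) and SNHG9 (0.171) did not pass. The size of several of these changes moved little when a shCDK5RAP3 library was left out: without replicate 1 and 2 the log2 change was 0.36 and 0.35 for GAS5, 0.74 and 0.77 for SNHG30, and 0.37 and 0.34 for SNHG12. Over all genes the count called higher also dropped in these fits with 1 library in a group, from 3704 to 2232 and 1556.

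The other 4 host genes had too few counts to be tested. SNHG18 had 0 counts in both control libraries against 10 and 5 with the CDK5RAP3 hairpin. With the controls set at a floor of 3 counts per library, the ratio of the group means is 2.51. That ratio leaves out the counting error of the 10 and 5 counts, and the difference was not tested. SNHG22, the host of SCARNA17, had 8 and 3 against 4 and 7 counts, and SNHG26, the host of SNORD93, had 6 and 3 against 4 and 0. SNHG27 was at 0 in every library, which allows up to 3 counts in each (0.101 to 0.105 CPM).

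Some host genes lie in the same region of a chromosome, so that 2 transcripts from 1 region can be compared. SNHG17 and SNHG11 start 11225 bp apart on opposite strands of chromosome 20. The log2 ratio of SNHG17 to SNHG11 was 0.97 and 0.85 with the control hairpin against 1.73 and 1.54 with the CDK5RAP3 hairpin, a change of 0.73. SNHG12 and SNHG3 start 77152 bp apart on chromosome 1. Their log2 ratio went from -1.90 and -2.00 to -1.53 and -1.42, a change of 0.48. In both pairs the ratios of the groups did not overlap, as holds for the levels of 71.4% of all genes, and the change in ratio was not tested.

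Several host genes start within 2 kb of a protein-coding gene on the opposite strand. In 7 such pairs both genes were tested, and the coding partner was called in 7 of the 7, beside 41.5% of all genes (19.7% higher and 21.8% lower). In 4 pairs both genes were called, each time higher. SNHG1 (log2 change 0.20) lies beside SLC3A2, the heavy chain of a plasma membrane amino acid transporter, which had 136 and 144 against 242 and 272 CPM (0.88 ± 0.07 SE, edgeR adjusted p = 3.303e-05). SNHG9 (1.05) lies beside RPS2, a ribosomal protein that is itself a snoRNA host (0.28, edgeR adjusted p = 0.01075). SNHG10 (0.81) lies beside GLRX5, a mitochondrial iron-sulphur cluster protein (0.44, edgeR adjusted p = 0.0018), and GAS5 (0.35) beside ZBTB37 (0.58, edgeR adjusted p = 0.00068). RPS2 and GLRX5 did not pass in the absence of shCDK5RAP3 replicate 2 (edgeR adjusted p = 0.193 and 0.0686).

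In the other 3 pairs the host did not pass. ZFAS1 (-0.01) starts 248 bp from ZNFX1, an RNA-binding helicase, which had 22.0 and 19.1 against 38.6 and 38.5 CPM (0.91 ± 0.10 SE, edgeR adjusted p = 0.00016). SNHG19 (0.18) lies beside TRAF7 (-0.39, edgeR adjusted p = 0.0024, and 0.0692 without shCDK5RAP3 replicate 2), and SNHG31 (-0.63) beside BARD1, the partner of BRCA1 (-0.56, edgeR adjusted p = 0.0014). The host-to-partner ratio did not overlap between the groups in 6 of the 7 pairs, all except SNHG31 and BARD1, where 71.4% of single genes do not overlap either. The difference in fold change within a pair was not tested. GLRX5 and ZNFX1 overlap exons of their host, and without a stated strand setting of the counting, reads of such pairs cannot be told apart.

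**Figure D3:**
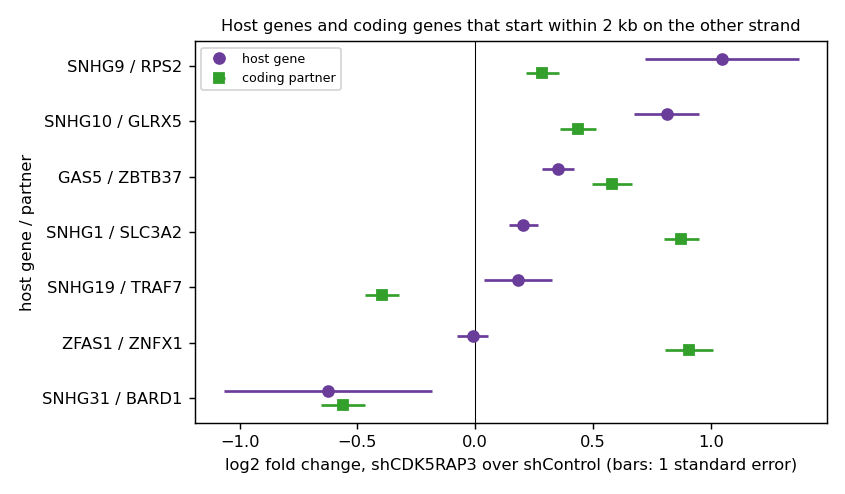
Log2 fold change with 1 standard error of 7 host genes (purple circles) and of the coding gene that starts within 2 kb on the opposite strand (green squares), ordered by the host's change. SLC3A2 at 0.88 and ZNFX1 at 0.91 lie well to the right of SNHG1 at 0.20 and ZFAS1 at -0.01.

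Other neighbours bear on how single host genes can be read. Exons of 8 tested host genes overlap exons of 9 genes on the opposite strand at a control level of 1 CPM or more. SNHG7 (0.29) overlaps DIPK1B, which fell from 63.5 and 64.6 to 25.4 and 27.1 CPM (log2 change -1.29 ± 0.08 SE, edgeR adjusted p = 7.395e-06), so the pair moved in opposite directions. DLEU2 (-0.61) overlaps TRIM13, which also fell (-0.75, edgeR adjusted p = 0.00068), and their ratio overlapped between the groups. SNHG12 (0.35) overlaps TRNAU1AP (0.43, edgeR adjusted p = 0.0122, lost without either shCDK5RAP3 library at 0.0766 and 0.0919). SNHG3 starts 37 bp from RCC1 on the same strand and shares exons with it, with log2 changes of -0.12 for SNHG3 and 0.19 for RCC1 (edgeR adjusted p = 0.0387 for RCC1, which lost its call without shCDK5RAP3 replicate 1 at 0.104, without shCDK5RAP3 replicate 2 at 0.276 and without shControl replicate 2 at 0.11). SEC14L1, on the strand of SNHG20, was higher (0.33, edgeR adjusted p = 0.0051, and 0.0811 without shCDK5RAP3 replicate 1), and ABCA12, opposite SNHG31, was lower (-1.91, edgeR adjusted p = 4.381e-05). Near the untested SNHG18, SEMA5A rose from 32.9 and 28.5 to 82.2 and 77.0 CPM (log2 change 1.38, edgeR adjusted p = 8.93e-06). ACAA2, near the untested SNHG22, was slightly lower (-0.21, edgeR adjusted p = 0.0338). The call of ACAA2 was lost with DESeq2 (adjusted p = 0.082) and with no filter on low counts (edgeR adjusted p = 0.078). Antisense to SNHG14, UBE3A did not pass (0.01 ± 0.06 SE), and neither did SNRPN on the same strand (-0.23), which passed without shControl replicate 1 (-0.38, edgeR adjusted p = 0.000738) and with replicate number as a block (-0.22, 0.00636). PWAR5, inside SNHG14 on the same strand, had 6.84 and 3.64 against 9.38 and 9.42 CPM (0.84 ± 0.26 SE, edgeR adjusted p = 0.0295). Its call was lost without shCDK5RAP3 replicate 1 (0.141), without shCDK5RAP3 replicate 2 (0.195), without shControl replicate 2 (0.1, at a log2 change of 0.46) and with no filter on low counts (0.224).

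The snoRNAs themselves were hardly sampled. RefSeq places 187 small RNAs inside 30 of the host genes: 160 C/D, 23 H/ACA and 4 small Cajal body RNAs. Of the 175 that have a row, 74 were at 0 in every library, 29 had exactly 1 count in each library, and 8 reached 10 counts in any library. SNORD7 had exactly 2 counts in each library. Equal counts in all 4 libraries lack the spread of sampled reads, so these rows may not measure the snoRNA. Where they come from was not tested. The summed counts of the 175 rows, with these included, were 208 and 238 with the control hairpin against 212 and 243 with the CDK5RAP3 hairpin. Of the 8 rows tested, 0 passed the edgeR test, 0 had an unadjusted p under 0.05, and 0 passed with DESeq2. SNORA71A of SNHG17 had 8 and 3 against 13 and 11 counts (log2 change 1.11 ± 0.68 SE), and SCARNA13 of SNHG10 had 12 and 31 against 11 and 18 (-0.57 ± 0.56 SE). SNORA26 of DANCR had 16 and 13 against 15 and 18 counts (0.18 ± 0.47 SE). With errors of this size a change in snoRNA level as large as that of the host was not detectable at these counts. Why the snoRNA rows hold so few counts was not tested. The values given for the host genes are those of the host rows. Of the 187 placed small RNAs 57 overlap an annotated exon of their host, among them all 8 of SNHG1, 9 of the 11 of GAS5 and those of SNHG15, SNHG9, SNHG8 and SNHG30, so a host row can hold reads of its snoRNA.

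The starts of the host genes were searched for the pyrimidine run that marks terminal oligopyrimidine RNAs. RefSeq promoter windows (GRCh38.p14, 250 bases before to 50 after the start) were at hand for 28 of the 33 genes. The run CTTTT, the run CTTTC or the run CTCTT was found within 10 bases of the start on the sense strand in 8 of the 28 (28.6%), beside 9.02% of all 27305 promoters in the table and 70.3% of 64 ribosomal protein genes. It was found in 1 of 7 host genes called higher, 2 of 5 called lower, 5 of 12 not called and 0 of 4 not tested. SNHG5, ZFAS1 and SNHG19 have it exactly at the annotated start, and all 3 did not pass. The E-box CACGTG, searched on both strands over the whole window, was found in SNHG7, SNHG30 and DLEU2 (10.7%, beside 7.43% of all promoters). A match is a description of letters, and annotated starts may differ from those used in these cells. The RefSeq starts also differ from the outer ends of some GENCODE genes given above, GAS5 and SNHG12 among them, so no match in a window says nothing of another start.

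The windows below run from 40 bases before the start to 30 bases from the start onward, with the tract in capitals, for the genes with a match and for SNHG17, the host gene with the lowest adjusted p.
SNHG5 (not called, chr6:85678704-85678773, minus strand): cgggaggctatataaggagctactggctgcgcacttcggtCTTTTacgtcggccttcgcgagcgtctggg
ZFAS1 (not called, chr20:49278602-49278671, plus strand): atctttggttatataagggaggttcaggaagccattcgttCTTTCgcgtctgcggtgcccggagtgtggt
SNHG19 (not called, chr16:2155329-2155398, minus strand): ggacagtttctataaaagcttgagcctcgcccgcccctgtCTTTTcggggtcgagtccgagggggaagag
SNHG16 (not called, chr17:76557724-76557793, plus strand): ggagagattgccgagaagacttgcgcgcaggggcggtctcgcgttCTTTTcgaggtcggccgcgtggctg
SNHG33 (not called, chr3:183447568-183447637, plus strand): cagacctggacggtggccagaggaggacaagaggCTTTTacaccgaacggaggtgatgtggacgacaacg
SNHG12 (higher, chr1:28581844-28581913, minus strand): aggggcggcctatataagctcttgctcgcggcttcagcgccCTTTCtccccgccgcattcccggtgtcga
SNHG8 (lower, chr4:118278722-118278791, plus strand): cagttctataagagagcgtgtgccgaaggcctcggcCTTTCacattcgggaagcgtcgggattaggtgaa
SNHG29 (lower, chr17:16438947-16439016, plus strand): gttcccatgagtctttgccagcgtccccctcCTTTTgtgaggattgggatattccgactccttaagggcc
SNHG17 (higher, no match, chr20:38435299-38435368, minus strand): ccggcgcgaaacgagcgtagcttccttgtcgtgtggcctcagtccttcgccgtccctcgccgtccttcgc

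Other genes of the snoRNA pathway were described by list, beside the host genes. Of 22 snoRNP proteins and assembly factors, which bind or load the snoRNA, 11 were higher and 1 was lower, with a median log2 change of 0.24. The largest rises were those of ZNHIT3 and RUVBL2, assembly factors of box C/D particles (0.51 each, edgeR adjusted p = 0.0062 and 0.0017), and of AQR, an intron-binding helicase (0.47, edgeR adjusted p = 0.00093). NOLC1, a chaperone that shuttles between nucleolus and Cajal body, fell by 0.17 on the log2 scale (edgeR adjusted p = 0.0370). Without shCDK5RAP3 replicate 2, only 2 of the 22 were higher, and RUVBL2 (edgeR adjusted p = 0.0691), ZNHIT3 (0.0588) and NOLC1 (0.171) lost their calls. Without shCDK5RAP3 replicate 1, 4 of the 22 were higher, and ZNHIT3 (0.0693) and NOLC1 (0.244) lost theirs. Of 22 factors of nonsense-mediated decay and the exon junction complex, 11 were higher and 2 were lower, with a median of 0.27. MAGOH, a core exon junction protein, went from 39.1 ± 1.47 to 73.3 ± 3.46 CPM (n = 2 each, ± SD; log2 change 0.91, edgeR adjusted p = 3.413e-05). The decay factor SMG5 (0.63) and the release factor ETF1 (0.62) were also higher, while the exon junction protein CASC3 (-0.51) and the helicase UPF1 (-0.26) were lower. The call of UPF1 was lost without shCDK5RAP3 replicate 1 (edgeR adjusted p = 0.0526), in the absence of shCDK5RAP3 replicate 2 (0.154) and with no filter on low counts (0.058).

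Host genes that make proteins were mostly higher or not called. Of 30 coding hosts other than ribosomal proteins 18 were higher and 4 were lower (median 0.23), and of 23 ribosomal protein hosts 13 were higher and 1 was lower (median 0.18). Without shCDK5RAP3 replicate 2 these higher counts were 8 and 3. Among the first list PPAN, a ribosome assembly factor (0.74), the chaperonin subunit TCP1 (0.61) and the splicing protein SNRPB (0.57) rose most, and NFATC3 (-0.81), RACK1 (-0.37) and EIF4A1 (-0.36) fell most. Among ribosomal proteins RPL13 (0.65), RPL27A (0.46) and RPL23 (0.37) rose most, and RPL37, which fell from 739 ± 1.34 to 224 ± 1.11 CPM (n = 2 each, ± SD; log2 change -1.72, edgeR adjusted p = 4.323e-07), was the only one called lower. Of 22 further terminal oligopyrimidine mRNAs 9 were higher and 4 were lower (median 0.06). EEF1G (0.54) and FAU (0.42) were among those that rose, and HNRNPA1 (-0.61), EIF4B (-0.50) and RACK1 (-0.37) fell most. Only 1 of the 22 was higher without shCDK5RAP3 replicate 2, and EEF1G (edgeR adjusted p = 0.0618) and FAU (0.103) lost their calls. The lists share NOP56, DKC1, EEF1B2, EEF2, RACK1 and IPO7, and each count stands beside the 19.7% and 21.8% of all genes called higher and lower.

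A list of long non-coding RNAs outside the SNHG family was set beside the host genes. Of 27 tested 9 were higher (33.3%) and 8 were lower (29.6%), beside 19.7% and 21.8% of all genes and 31.0% and 17.2% of the host genes. The median log2 change was -0.09, and the median absolute change was 0.44 against 0.29 for the host genes. These differences were not tested. MIR22HG (1.72) and KCNQ1OT1 (1.34) rose, as did RPPH1, the RNA of ribonuclease P, from 0.0862 CPM, below the floor, to 0.770 CPM (edgeR adjusted p = 0.0778 in the absence of shCDK5RAP3 replicate 2). MYCNOS, antisense to MYCN, fell from 172 ± 7.88 to 80.4 ± 4.01 CPM and H19 from 922 ± 55.0 to 444 ± 4.97 CPM (n = 2 each, ± SD), with log2 changes of -1.10 and -1.05. LINC00511 fell by 1.70 on the log2 scale (edgeR adjusted p = 0.0175, 0.0542 and 0.161 without shCDK5RAP3 replicate 1 and 2, and 0.167 without shControl replicate 1). Of 13 listed small Cajal body, telomerase and other small RNAs 4 were tested. SCARNA9 (2.08) and SNORD3A (2.00) were higher at levels near 1 CPM or less, and neither passed when shCDK5RAP3 replicate 1 (edgeR adjusted p = 0.0616 and 0.0619) or shCDK5RAP3 replicate 2 (0.055 and 0.196) was left out. That of SNORD3A was also lost without shControl replicate 1 (0.124) and without shControl replicate 2 (0.0631). RN7SL1, the RNA of the signal recognition particle, was lower (-0.63, edgeR adjusted p = 0.00046).

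**Figure D4:**
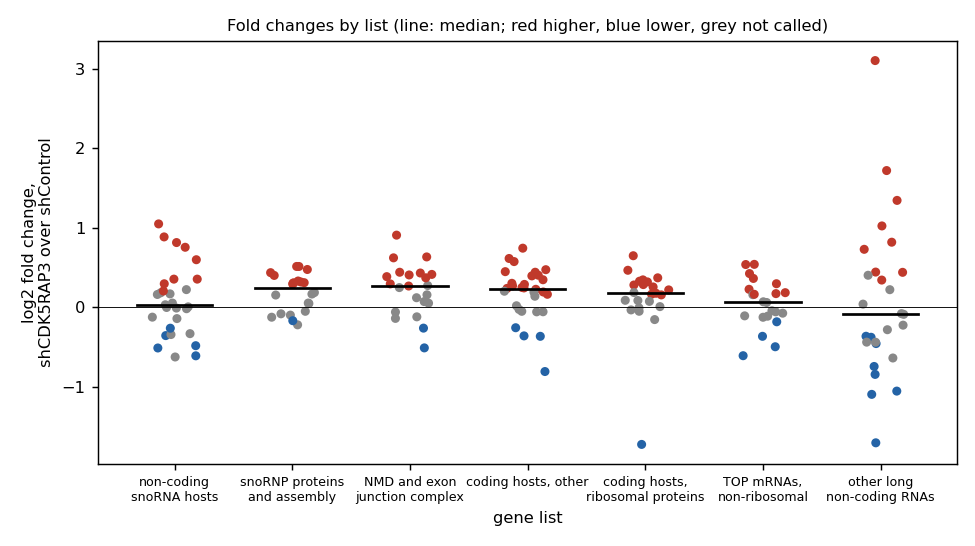
Log2 fold change (shCDK5RAP3 over shControl) of the tested genes of 7 lists, 1 point per gene, with the list's median as a line; red is higher and blue lower at an adjusted p under 0.05 and grey did not pass. The non-coding host genes on the left lie on both sides of 0 with a median of 0.03, and the ribosomal protein list holds 1 point far below the rest, RPL37 at -1.72.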

How the data were processed

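The data are RNA-seq counts of 4 libraries of SK-N-BE(2) cells. The authors deposited 1 table of whole-number read counts per Ensembl gene, with no scaling. HISAT2 2.2.0 and StringTie are named, with build hg38 and no roles, per the submitters' processing notes. The sources used here do not give the annotation release, the strand setting or the treatment of multi-mapping reads.

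Identifiers were matched to GENCODE 29 and a table of gene names (56591 of 64252 rows). The test was edgeR 4.0.16 in R 4.3.3: TMM factors, the default filter on low counts by group (18775 genes kept, 30331 rows being 0 everywhere), quasi-likelihood fit, Benjamini-Hochberg adjustment over all genes tested, threshold 0.05, no covariates. CPM values use TMM-scaled library sizes, log2 changes are shCDK5RAP3 over shControl, and SE is the change over the root of the F statistic. A count of 0 allows 3 counts, for counting error only. Libraries of 1 group differed by more than counting noise (chi-square per degree of freedom 8.67 and 6.81, against 79 between groups).

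SnoRNAs were placed in hosts by RefSeq coordinates (GRCh38.p14), and 170 with a GENCODE sequence all lie on the host's strand. Sequences came from GENCODE 29 and RefSeq. SNHG33 was matched through RefSeq to LINC00888.

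Members and lists were chosen with earlier results of these data known. Named genes were all members, tested genes that overlap them or start within 2 kb (not all are printed), and from each list over 12 genes the 3 largest rises and falls among calls. One gene that this rule names is not reported here. Alternatives were other scaling (DESeq2 size factors, upper quartile, library size), filters (none, CPM of 1 in 2 libraries), DESeq2 1.42.0, a robust fit, a replicate block, rows summed by symbol, SNHG32 kept, leaving out each library, and a threshold of 0.01.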

Additional observations from a re-analysis of the deposited data

How the results depend on the processing

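Each group has 2 libraries, and no fit here can tell culture-to-culture spread from technical spread. None of the 14 called host genes changed sign under any alternative. Without a filter on low counts 3 host genes were higher and 2 lower, beside 1966 and 2522 of all genes; at a threshold of 0.01, 6 host genes were higher and 3 lower, beside 2421 and 2814 of all genes. With 1 library left out, host genes higher ranged from 3 to 8 and lower from 1 to 4, and all genes higher from 1556 to 3516 and lower from 2196 to 3813.

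For the lists, no filter gave 3 snoRNP genes higher and 0 lower, 1 decay factor lower, 11 coding hosts and 5 ribosomal protein hosts higher, 1 oligopyrimidine mRNA higher, 5 other long non-coding RNAs lower and 1 small Cajal body or related RNA higher. With 1 library left out the ranges were 2 to 10 snoRNP genes higher and 0 to 1 lower, 1 to 3 decay factors lower, 8 to 19 coding hosts higher, 3 to 13 ribosomal protein hosts higher, 1 to 7 oligopyrimidine mRNAs higher, 3 to 8 other long non-coding RNAs lower and 0 to 1 small Cajal body or related RNAs higher. Scaling by library size gave 2 ribosomal protein hosts and 2 snoRNP genes lower, upper-quartile factors 0 snoRNP genes lower, and the robust fit 2 ribosomal protein hosts lower. Of the small Cajal body and related RNAs 1 was higher with DESeq2 and 0 with the filter of 1 CPM in 2 libraries. The cause of these shifts was not tested.

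Equal replicate numbers deviated together only weakly (correlation 0.147 over 13890 genes), and no label says that they share a culture. With the replicate block 2 ribosomal protein hosts, 3 snoRNP genes and 7 oligopyrimidine mRNAs were lower, SNHG6 was gained among host genes (edgeR adjusted p = 0.0437) and no host gene call was lost.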
